A study of Mus musculus with 10 samples.

Results

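Mast cells are tissue-resident cells that arise from bone marrow progenitors, mature under stem cell factor acting on its receptor Kit, and settle around vessels, also in the outer layer of the aorta. Their granules hold proteases bound to the proteoglycan serglycin, namely chymases, tryptases and carboxypeptidase A3. They release these granules when antigen crosslinks IgE held on the high-affinity receptor, which is built of an alpha, a beta and a shared gamma chain.

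Here 7 mast cell genes were described, of the 18193 genes named on the array: the chymases Cma1 and Mcpt4, the tryptase Tpsb2, the carboxypeptidase Cpa3, the receptor Kit, and the alpha and beta chains of the IgE receptor, Fcer1a and Ms4a2. They were chosen by name, and all 10 probe sets annotated to exactly 1 of these symbols were taken, of 45037 probe sets in all. RNA of the abdominal aorta was measured in 6 KCASP1Tg and 4 WT mice, 1 array per mouse by the labels. The methods of the study give a number of mice for these profiles that differs from that of the labels, which were followed. KCASP1Tg mice were females carrying the human caspase-1 gene under the keratin 14 promoter, which drives it in keratinocytes, and had skin inflammation. WT mice were C57BL/6 littermates, and tissue was taken at 16 weeks of age in both groups. Each value is a signal intensity, computed by the authors with each array scaled to the same mean, and log2 was taken after signals below 1 were set to 1. A probe set was tested, with limma, where 4 or more arrays had a signal of 100 or more, and the p-values were adjusted by the Benjamini-Hochberg method over all 26242 probe sets tested. In bulk tissue, fewer mast cells and less RNA per mast cell cannot be told apart.

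The arrays also held RNA of liver, heart muscle and lymph node genes, in amounts that differed between mice. Its source was not tested. The summed signal of 4 liver genes was 154 to 3117 on the KCASP1Tg arrays and 1409 to 92301 on the WT arrays, where WT 1 and WT 3 (46028) were highest. That of 5 heart muscle genes was 24394 in KCASP1Tg 1, 14074 in KCASP1Tg 2 and at most 1741 on the other KCASP1Tg arrays, against 47229 in WT 4 and at most 3181 on the other WT arrays. KCASP1Tg 4 had a summed signal of 30224 for 5 lymph node genes, against 366 to 1228 on the other KCASP1Tg arrays and 211 to 642 on the WT arrays, and the lowest sum of 5 smooth muscle genes, 30496 against at least 65521 on the other KCASP1Tg arrays and at least 69557 on the WT arrays. The summed signal of 4 adipocyte genes was 79166 to 125908 on the KCASP1Tg arrays and 89248 to 104354 on the WT arrays, with KCASP1Tg 3 highest.

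Chymases, carboxypeptidase A3 and both IgE receptor chains carry, in the bases before their start, the letters that GATA factors bind. These factors, among them Gata1 and Gata2, set up the mast cell program. A window of 250 bases before the RefSeq start (GRCm38.p6) was at hand for 6 of the 7 genes, with Tpsb2 unmatched. The letters GATAA, which read TTATC on the other strand, were found in 5 of these 6 genes, all but Kit, and in 22.6% of 32851 windows of the same length over all genes. The windows of the 3 proteases measured well above the filter are given with their shared pattern over the mice, with these letters, on either strand, in capitals. All are written 5′ to 3′ in the direction of the gene, which lies on the minus strand, and lie at chr14:55944676-55944925 (Cma1), chr14:56062311-56062560 (Mcpt4) and chr3:20242182-20242431 (Cpa3).
Cma1: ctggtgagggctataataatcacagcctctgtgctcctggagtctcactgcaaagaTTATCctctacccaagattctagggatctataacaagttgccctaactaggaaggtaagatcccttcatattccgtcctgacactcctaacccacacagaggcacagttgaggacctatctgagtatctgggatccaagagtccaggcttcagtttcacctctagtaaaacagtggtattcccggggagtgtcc
Mcpt4: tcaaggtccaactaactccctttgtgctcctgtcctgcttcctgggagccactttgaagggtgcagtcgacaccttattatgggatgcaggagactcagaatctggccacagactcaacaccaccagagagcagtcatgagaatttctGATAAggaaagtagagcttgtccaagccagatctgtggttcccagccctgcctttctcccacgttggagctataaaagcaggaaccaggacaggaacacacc
Cpa3: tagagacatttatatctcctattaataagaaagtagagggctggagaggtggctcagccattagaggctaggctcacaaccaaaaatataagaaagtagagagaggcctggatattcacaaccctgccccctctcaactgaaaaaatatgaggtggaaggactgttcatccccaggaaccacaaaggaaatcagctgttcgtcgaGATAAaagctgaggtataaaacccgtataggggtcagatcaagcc
The match began 194 bases before the start in Cma1, 102 in Mcpt4 and 45 in Cpa3. In Fcer1a it began 92 bases before the start, and Ms4a2 held 3 matches at 224, 37 and 10 bases. The letters TATAAA, which read TTTATA on the other strand and form the core of a TATA box, were in 3 of the 6 windows, those of Mcpt4, Cpa3 and Fcer1a, and in 12.4% of all windows. They began 32 bases before the start in Mcpt4, 242 and 31 in Cpa3, and farther away, at 125, in Fcer1a. The letters CATGTG, which read CACATG on the other strand and form an E-box that Mitf can bind, were in 1 of the 6, that of Fcer1a, and in 12.3% of all windows. Aligned with each other, the windows of Cma1 and Mcpt4, both chymases on chromosome 14, were 54.1% identical, and the other pairs of the 6 genes 41.9% to 52.4%. Windows of other genes were not aligned, so these values do not show that any pair is related. A match of letters is a description of the sequence and does not show that a factor binds there.

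None of the 7 genes was called as different between KCASP1Tg and WT aorta. Of the 10 probe sets, 5 passed the filter on low signals (Cma1, Mcpt4, Cpa3 and both of Kit) and 0 were called at an adjusted p under 0.05, where 0.0686% of all tested probe sets were called higher in KCASP1Tg mice and 0.0% lower. At an unadjusted p under 0.05, 1 of the 5 was higher, a probe set of Kit, where 4.52% of all tested probe sets were, and 0 were lower, where 3.42% were. In 0 of the 5 tested probe sets, and in 0 of all 10, did the KCASP1Tg and WT arrays stay apart from each other. Of all tested probe sets, 1.98% had every KCASP1Tg array above every WT array and 0.949% had every one below. The median log2 difference of the 5 tested probe sets, KCASP1Tg minus WT, was 0.23, and that of all tested probe sets was -0.00. It was 0.47 without the arrays with the most heart muscle RNA (WT 4, KCASP1Tg 1 and KCASP1Tg 2) and 0.04 without those with the most liver RNA (WT 1 and WT 3). Of the 10 probe sets, tested or not, 8 had a log2 difference above 0 and 2 below, against 49.6% of all tested probe sets above 0. That share leaves out dim probe sets, while 5 of the 10 were dim.

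**Figure D1:**
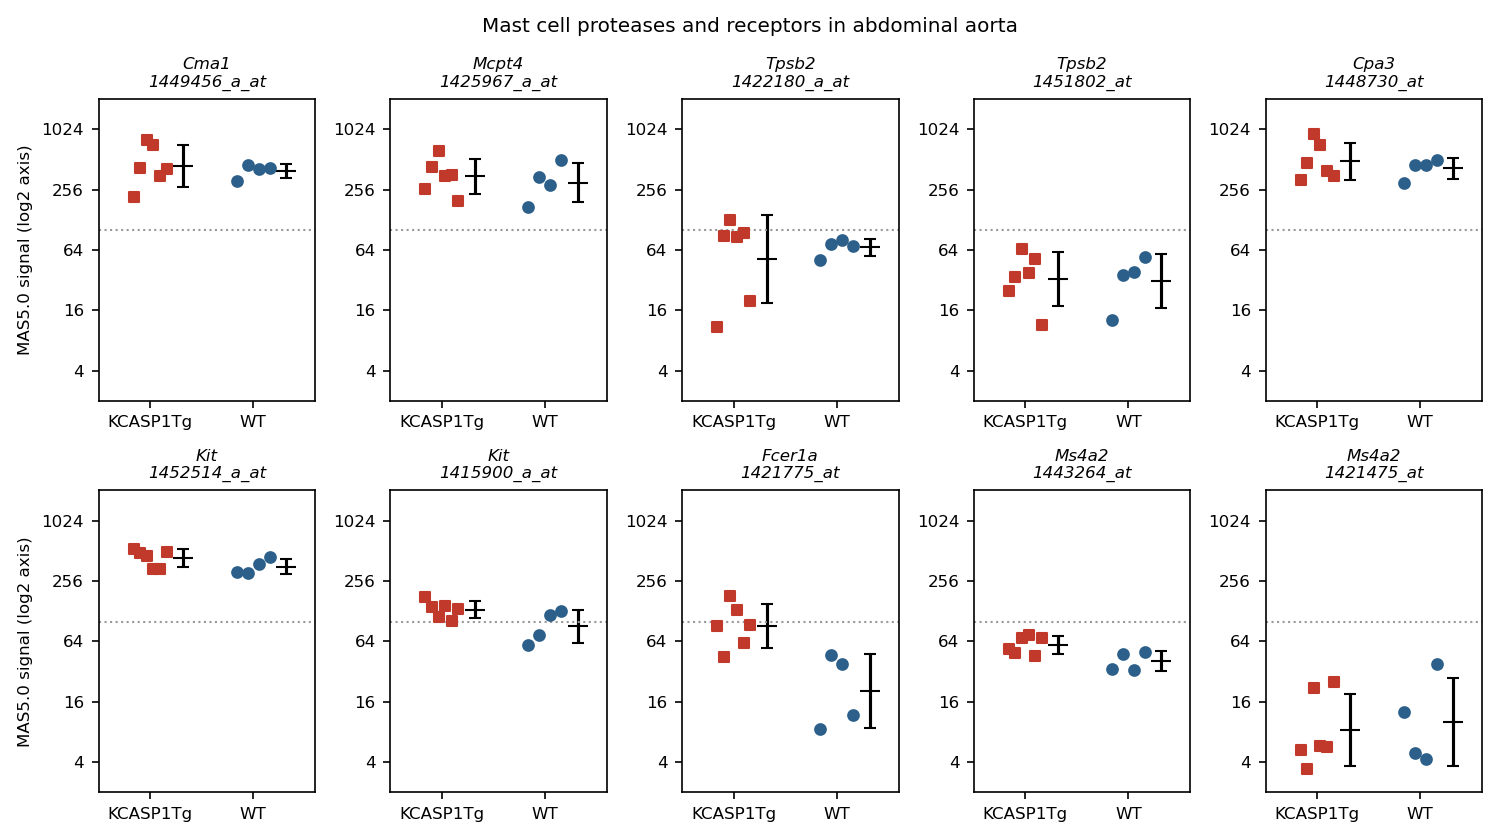
Signal (log axis) of each of the 10 probe sets of the 7 mast cell genes on each array, KCASP1Tg mice (squares, n = 6) on the left and WT mice (circles, n = 4) on the right of each panel, with bars for the mean and SD of the log2 values and a dotted line at a signal of 100. The groups overlap in every panel, and Fcer1a comes nearest to separating, with 5 of 6 KCASP1Tg arrays above the highest WT array.

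Cma1 encodes mast cell protease 5, a granule chymase that in the mouse has elastase-like activity. The Cma1 signal was lowest at 218, with a median of 413 and a highest value of 804 in KCASP1Tg mice, and was 313, 451, 408 and 420 in WT mice. Thus 2 KCASP1Tg arrays, KCASP1Tg 3 (804) and KCASP1Tg 4 (707), lay above all WT arrays, KCASP1Tg 1 (218) lay below all of them, and the groups overlapped. The mean was 484 ± 224 in KCASP1Tg mice and 398 ± 59.7 in WT mice (SD, n = 6 and 4). The log2 difference was 0.16 (SE 0.33, 95% interval -0.56 to 0.89, limma adjusted p = 0.968), which is less than the spread between the mice.

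Mcpt4 is the connective tissue chymase of the mouse, which can cut fibronectin and activate other proteases. The Mcpt4 signal was lowest at 197, with a median of 354 and a highest value of 620 in KCASP1Tg mice, against 171, 338, 283 and 501 in WT mice. KCASP1Tg 3 was the highest array and WT 1 the lowest, and the groups overlapped over nearly their whole range. The log2 difference was 0.20 (SE 0.35, 95% interval -0.57 to 0.97, limma adjusted p = 0.958).

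Cpa3, carboxypeptidase A3, trims residues from the ends of peptides that the chymases have cut and is stored in the same granules. The Cpa3 signal was lowest at 321, with a median of 432 and a highest value of 918 in KCASP1Tg mice, and was 294, 446, 449 and 504 in WT mice. As for Cma1, KCASP1Tg 3 (918) and KCASP1Tg 4 (706) lay above all WT arrays, while the other KCASP1Tg arrays fell among them. The mean was 526 ± 237 in KCASP1Tg mice and 423 ± 90.2 in WT mice (SD, n = 6 and 4). The log2 difference was 0.23 (SE 0.30, 95% interval -0.45 to 0.91, limma adjusted p = 0.938), and 0.05 without KCASP1Tg 3, 0.06 without WT 1 and 0.06 with array weights.

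Tpsb2 encodes a tryptase, a serine protease that assembles on heparin in the granule. Its 2 probe sets were dim, with a signal of at least 100 on 1 array and on 0 arrays, so neither was tested. Probe set 1422180_a_at was lowest at 10.9, with a median of 87.2 and a highest value of 128 in KCASP1Tg mice, against 51.2, 73.6, 81.1 and 69.8 in WT mice. The KCASP1Tg arrays lay on both sides of WT, with 4 above the highest WT array and KCASP1Tg 1 (10.9) and KCASP1Tg 6 (19.8) below the lowest. Probe set 1451802_at was lowest at 11.4, with a median of 35.9 and a highest value of 65.1 in KCASP1Tg mice, against 12.9, 36.0, 38.8 and 54.7 in WT mice. On log2 values the differences were -0.38 (95% interval -1.93 to 1.17) and 0.05 (95% interval -1.14 to 1.24), and the exact Mann-Whitney p, two-sided, was 0.476 and 0.914. The sign of both rested on single arrays, since the first was 0.07 without KCASP1Tg 1 and the second -0.37 without WT 1, -0.14 without KCASP1Tg 3 and -0.08 without KCASP1Tg 5.

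The protease probe sets varied together over the mice. KCASP1Tg 3 was the highest of the 10 arrays in all 5 of them, and the lowest array was WT 1, KCASP1Tg 1 or KCASP1Tg 6 in all 5. With the mean of each genotype removed, Pearson's r over the 10 arrays was 0.92 for Cma1 with Cpa3, 0.80 for Mcpt4 with Cpa3 and 0.58 for Cma1 with Mcpt4. Over all 10 pairs of the 5 probe sets it was between 0.47 and 0.92, with a median of 0.73. Without KCASP1Tg 3 the range was 0.30 to 0.91 and the median 0.66. These values share the arrays and their scaling and are given as a description. KCASP1Tg 3 also had the highest summed signal of the adipocyte, fibroblast and progenitor genes, and of the smooth muscle genes (79580, with WT 4 at 79481). KCASP1Tg 4 had that of the macrophage genes (38805, against 13220 to 25156 on the other KCASP1Tg arrays and 9415 to 14171 on the WT arrays). KCASP1Tg 4, second for Cma1 and Cpa3, had the lowest sum of the adipocyte genes (79166). The part of surrounding tissue in the protease signals was not tested.

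**Figure D2:**
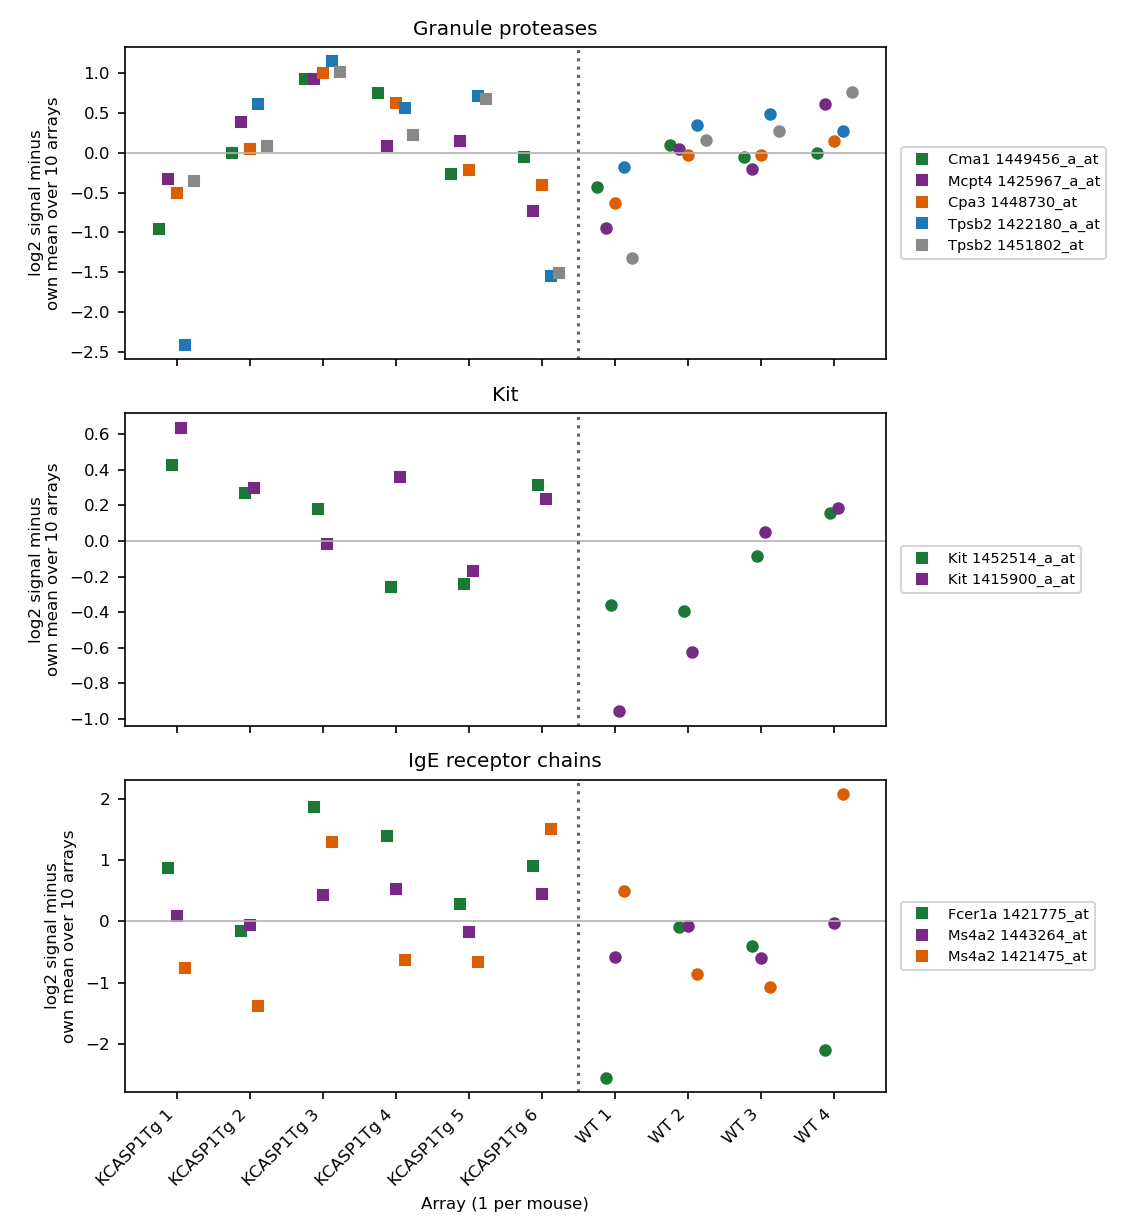
Signal of each probe set on each array as log2 minus the probe set's own mean over the 10 arrays, KCASP1Tg arrays (squares) left of the dotted line and WT arrays (circles) right of it, for the granule proteases (top), Kit (middle) and the IgE receptor chains (bottom). All 5 protease probe sets are highest in KCASP1Tg 3, while Kit is highest in KCASP1Tg 1.

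Kit is the receptor for stem cell factor, which mast cells need to live, and it is also found on melanocytes, interstitial cells of Cajal and blood progenitors. Both Kit probe sets passed the filter and had a higher mean in KCASP1Tg mice, but neither difference passed the test. Probe set 1452514_a_at was lowest at 335, with a median of 469 and a highest value of 539 in KCASP1Tg mice, against 312, 305, 379 and 447 in WT mice. Thus 4 KCASP1Tg arrays lay above the highest WT array, and KCASP1Tg 4 (335) and KCASP1Tg 5 (339) fell among the WT arrays. Its log2 difference was 0.28 (SE 0.18, 95% interval -0.11 to 0.68, limma adjusted p = 0.765). Probe set 1415900_a_at was lowest at 101, with a median of 137 and a highest value of 177 in KCASP1Tg mice, against 58.6, 74.0, 118 and 129 in WT mice. Again 4 KCASP1Tg arrays lay above the highest WT array, KCASP1Tg 1 being the highest and WT 1 the lowest of all. Its log2 difference was 0.56 (SE 0.24, 95% interval 0.03 to 1.09), with an unadjusted limma p of 0.0416 and an adjusted p of 0.596. With 1 array left out this difference ran from 0.35 without WT 1 to 0.73 without WT 4. It was 0.37 with 50 added to each signal. The exact Mann-Whitney p, two-sided, was 0.114 for both Kit probe sets, where the smallest that 6 against 4 mice allow is 0.00952.

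Kit followed another pattern over the mice. With the genotype means removed, r was 0.67 between the Kit probe sets over the 10 arrays and between -0.49 and 0.22 for the 10 pairs of a Kit with a protease probe set, with a median of -0.10. Without KCASP1Tg 1 this range was -0.27 to 0.37 and the median 0.17. KCASP1Tg 1, the lowest array for Cma1 and for probe set 1422180_a_at of Tpsb2, was the highest for both Kit probe sets. Of the other cells that carry Kit, none of the lists of their markers had a gene called. Dct was the tested marker of the melanocyte list (log2 difference -0.86, limma adjusted p = 0.363). Of 3 measured markers of interstitial cells of Cajal, 2 were tested, Ano1 and Prkg1 (median log2 difference -0.07), and Gpr20 was too dim. Of 5 progenitor markers, 3 were tested, Cd34, Hlf and Angpt1 (median -0.02), and Flt3 and Myb were too dim. Cd34, at 1544 to 3425 in KCASP1Tg and 2507 to 3186 in WT mice, was the highest of the progenitor markers. Whether the tested markers report these cells in the aorta was not tested. The summed signals of these lists overlapped between KCASP1Tg and WT mice, at 173 to 384 and 287 to 388 for the melanocyte list. They were 1166 to 2422 and 1532 to 3137 for the list of interstitial cells of Cajal, and 2634 to 4821 and 3317 to 4376 for the progenitor list. The part of these cells in the Kit signal was not tested.

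**Figure D3:**
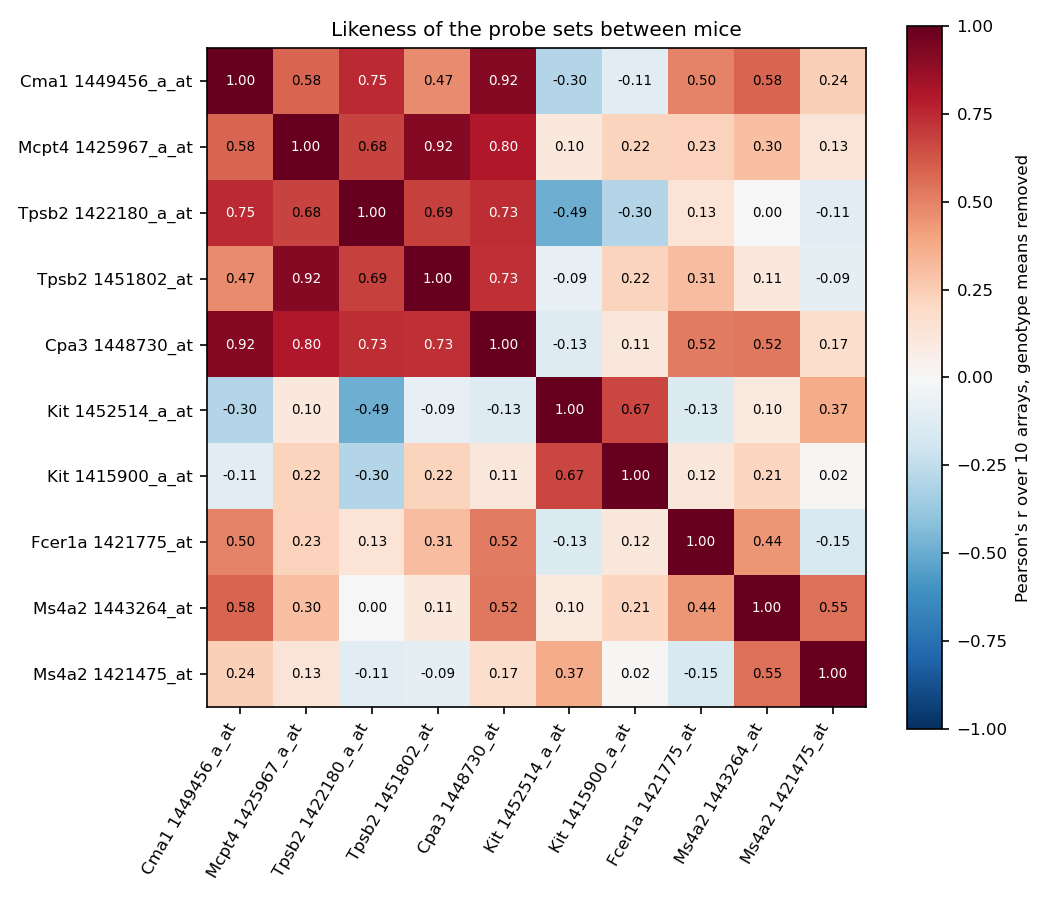
Pearson's r between each pair of the 10 probe sets over the 10 arrays (6 KCASP1Tg, 4 WT) with genotype means removed, from -1 (blue) to 1 (red). The 5 protease probe sets form a block of r between 0.47 and 0.92, and r between Kit and the proteases lies between -0.49 and 0.22.

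Fcer1a, the IgE-binding alpha chain of the high-affinity receptor, had the widest gap between the groups of the 7 genes, at signals near or below the filter. Its signal was lowest at 45.0, with a median of 92.7 and a highest value of 183 in KCASP1Tg mice, against 8.56, 46.9, 37.8 and 11.8 in WT mice. Of the 6 KCASP1Tg arrays 5 lay above the highest WT array, and KCASP1Tg 2 (45.0) lay just below WT 2 (46.9). The mean was 101 ± 50.1 in KCASP1Tg mice and 26.3 ± 19.0 in WT mice (SD, n = 6 and 4). Only 2 arrays, KCASP1Tg 3 (183) and KCASP1Tg 4 (131), reached 100, so Fcer1a was not among the tested probe sets. In a fit without the filter the log2 difference was 2.15 (95% interval 0.89 to 3.40), a 4.43-fold higher signal in KCASP1Tg mice, with a limma adjusted p of 0.463. The exact Mann-Whitney p, two-sided and unadjusted, was 0.0190. The size of the difference depended on how the low signals were treated, and was 0.96 on the log2 scale after 50 was added to each signal and 1.81 with signals below 16 set to 16. It was 1.95 without WT 1 and WT 3, and 2.13 without WT 4, KCASP1Tg 1 and KCASP1Tg 2.

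Ms4a2 encodes the beta chain, which amplifies the signal of the receptor. Its 2 probe sets were dim on all arrays and were not tested. Probe set 1443264_at was lowest at 45.5 and highest at 73.7 in KCASP1Tg mice, with a median of 61.3, against 34.1, 48.4, 33.5 and 50.3 in WT mice. Here 4 KCASP1Tg arrays lay above the highest WT array, and the groups overlapped at KCASP1Tg 2 (49.2) and KCASP1Tg 5 (45.5). Its log2 difference was 0.53 (95% interval 0.08 to 0.98), or 0.26 with 50 added to each signal, and the exact Mann-Whitney p, two-sided, was 0.0667. Probe set 1421475_at lay between 3.45 and 25.5 in KCASP1Tg mice and between 4.28 and 37.9 in WT mice (exact Mann-Whitney p = 1). Its log2 difference was -0.27 (95% interval -1.99 to 1.46), and 0.37 without WT 4, its highest array. With genotype means removed, r between the Ms4a2 probe sets was 0.55 over the 10 arrays. Measured in the same way, Fcer1a and probe set 1443264_at of Ms4a2 had an r of 0.44, and Fcer1a with the 5 protease probe sets an r of 0.13 to 0.52 (median 0.31). Without WT 1 the last range was -0.11 to 0.45 (median 0.07), and without KCASP1Tg 3 it was -0.055 to 0.35 (median 0.16).

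Basophils, blood cells that share the IgE receptor with mast cells, were looked for by a list of markers, not all of them particular to basophils. Their protease Mcpt8 had a signal of 1.76 to 50.04 in KCASP1Tg mice, highest in KCASP1Tg 4 and at most 10.2 on the others, and 1.77 to 8.51 in WT mice, and Cd200r3, a surface receptor of basophils and mast cells, 1.21 to 28.1 and 6.27 to 22.9 in KCASP1Tg and WT mice. Ccr3, a receptor for eotaxins, had 1.83 to 8.21 and 2.43 to 46.4 in KCASP1Tg and WT mice. Cyp11a1, an enzyme of steroid synthesis, reached 926 in KCASP1Tg 2 and at most 69.4 on the other KCASP1Tg arrays, against 257 in WT 3 and at most 56.9 on the other WT arrays. The source of the Cyp11a1 signal was not tested. Of the 5 basophil genes measured, Il3ra, the alpha chain of the interleukin-3 receptor, was the 1 tested and was not called (log2 difference 0.23, limma adjusted p = 0.943).

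The remaining genes of the mast cell program were read from lists of its proteases, its mediators, its receptors and signalling proteins, its growth factors and its transcription factors, with 1 probe set per gene. These lists were chosen with earlier results of these data known, so their counts are given as a description. Of the tested genes named on the array 0.0895% were called higher in KCASP1Tg mice and 0.0% lower, and their median log2 difference was 0.00. Among the other granule proteases, 6 of 7 measured were too dim to be tested, namely Tpsab1, Tpsg1, Mcpt1, Mcpt2, Mcpt8 and Ctsg. The tryptase Tpsab1 had a signal of 21.0 to 131 in KCASP1Tg mice and 38.2 to 49.2 in WT mice, with KCASP1Tg 3 highest here too. Gzmb, a granzyme shared with lymphocytes, was tested and not called (log2 difference 1.35, SE 0.47, limma adjusted p = 0.477), and its highest signal, 256, was in KCASP1Tg 4.

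Of 8 tested genes of granule contents and mediators, 1 rose, 0 fell and 7 were not called, with a median log2 difference of 0.27. At an unadjusted limma p under 0.05, 3 of the 8 were higher, where 4.67% of all tested genes were. In 3, Alox5ap, Ndst2 and Srgn, the KCASP1Tg arrays all lay above the WT arrays, against 2.29% of all tested genes. The gene that rose was Alox5ap, which presents arachidonic acid to 5-lipoxygenase and is made by macrophages and neutrophils as well as by mast cells. Its signal was 1727 to 2808 in KCASP1Tg mice, median 2083, against 844, 963, 766 and 775 in WT mice, so that the groups did not overlap. The log2 difference was 1.39 (SE 0.16, limma adjusted p = 0.00833), and without KCASP1Tg 4 it was 1.33 (adjusted p = 0.00891). The call was lost without WT 3 (log2 difference 1.35, limma adjusted p = 0.0509), without WT 1 and WT 3 (1.34, 0.288) and without WT 4, KCASP1Tg 1 and KCASP1Tg 2 (1.39, 0.323). It was also lost with a block for replicate number (1.52, limma adjusted p = 0.426). The exact Mann-Whitney test made no call either (adjusted p = 0.325), but its smallest p could not pass the adjustment. The summed signal of 6 neutrophil genes was 6348 to 52525 in KCASP1Tg mice and 585 to 838 in WT mice, and 2 of the 6 were called higher. This sum was highest in KCASP1Tg 4, with at most 12909 on the other KCASP1Tg arrays. Alox5ap was 2669 in KCASP1Tg 4 and highest in KCASP1Tg 3 (2808). The summed signal of 6 macrophage genes was 13220 to 38805 in KCASP1Tg mice and 9415 to 14171 in WT mice, and 0 were called. The part of these cells in the Alox5ap signal was not tested. Ndst2, an enzyme that sulfates the heparin of the granule, had a signal of 399 to 463 in KCASP1Tg mice and 301 to 395 in WT mice, without overlap, but was not called (log2 difference 0.38, SE 0.11, limma adjusted p = 0.342). Srgn, serglycin, had 5930 to 13097 in KCASP1Tg mice, highest in KCASP1Tg 4, against 4752 to 5376 in WT mice, and was not called (log2 difference 0.62, limma adjusted p = 0.44). The part of cells other than mast cells in the Ndst2 and Srgn signals was not tested. Hdc, which makes histamine, had 105 to 285 in KCASP1Tg mice and 104 to 129 in WT mice and was not called either (log2 difference 0.52, limma adjusted p = 0.654).

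Of 9 tested genes of receptors and signalling, 0 were called, all 9 had a log2 difference above 0, against 50.2% of all tested genes, and the median was 1.0. At an unadjusted limma p under 0.05, 5 of the 9 were higher, where 4.67% of all tested genes were. In 4 of them, Fcer1g, Syk, Btk and Csf2rb2, every KCASP1Tg array lay above every WT array, against 2.29% of all tested genes, and in none did every KCASP1Tg array lie below, against 1.04%. Fcer1g, the gamma chain that the IgE receptor shares with IgG receptors of macrophages and neutrophils, had a signal of 1038 to 3005 in KCASP1Tg mice, median 1168, against 882, 620, 620 and 564 in WT mice (log2 difference 1.05, SE 0.29, limma adjusted p = 0.342). Btk, a kinase of mast cells, B cells and myeloid cells, had 91.2 to 747 in KCASP1Tg mice and 8.48 to 88.0 in WT mice (log2 difference 1.86, SE 0.76, limma adjusted p = 0.568). KCASP1Tg 4, the array with the lymph node genes, was highest for Fcer1g, Syk, Lat, Btk, Inpp5d, Csf2rb and Csf2rb2, and of the 10 probe sets of the 7 mast cell genes it was the highest for probe set 1443264_at of Ms4a2 (73.7). Without it the median of the 9 was 0.60. The part of other leukocytes in these signals was not tested.

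Of 3 tested growth factors, 0 were called. Kitl, the stem cell factor itself, had a signal of 2333 to 3039 in KCASP1Tg mice and 2300 to 3570 in WT mice (log2 difference -0.15, 95% interval -0.47 to 0.17, limma adjusted p = 0.888). Tgfb1, which can draw in mast cells, had 223 to 551 and 198 to 249 in KCASP1Tg and WT mice (log2 difference 0.38, limma adjusted p = 0.753). Of 9 tested transcription factors 0 were called either, and their median log2 difference was -0.02. Those with the smallest p were Zeb2 (log2 difference -0.39, limma adjusted p = 0.665) and Stat5b (-0.16, adjusted p = 0.811).

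**Figure D4:**
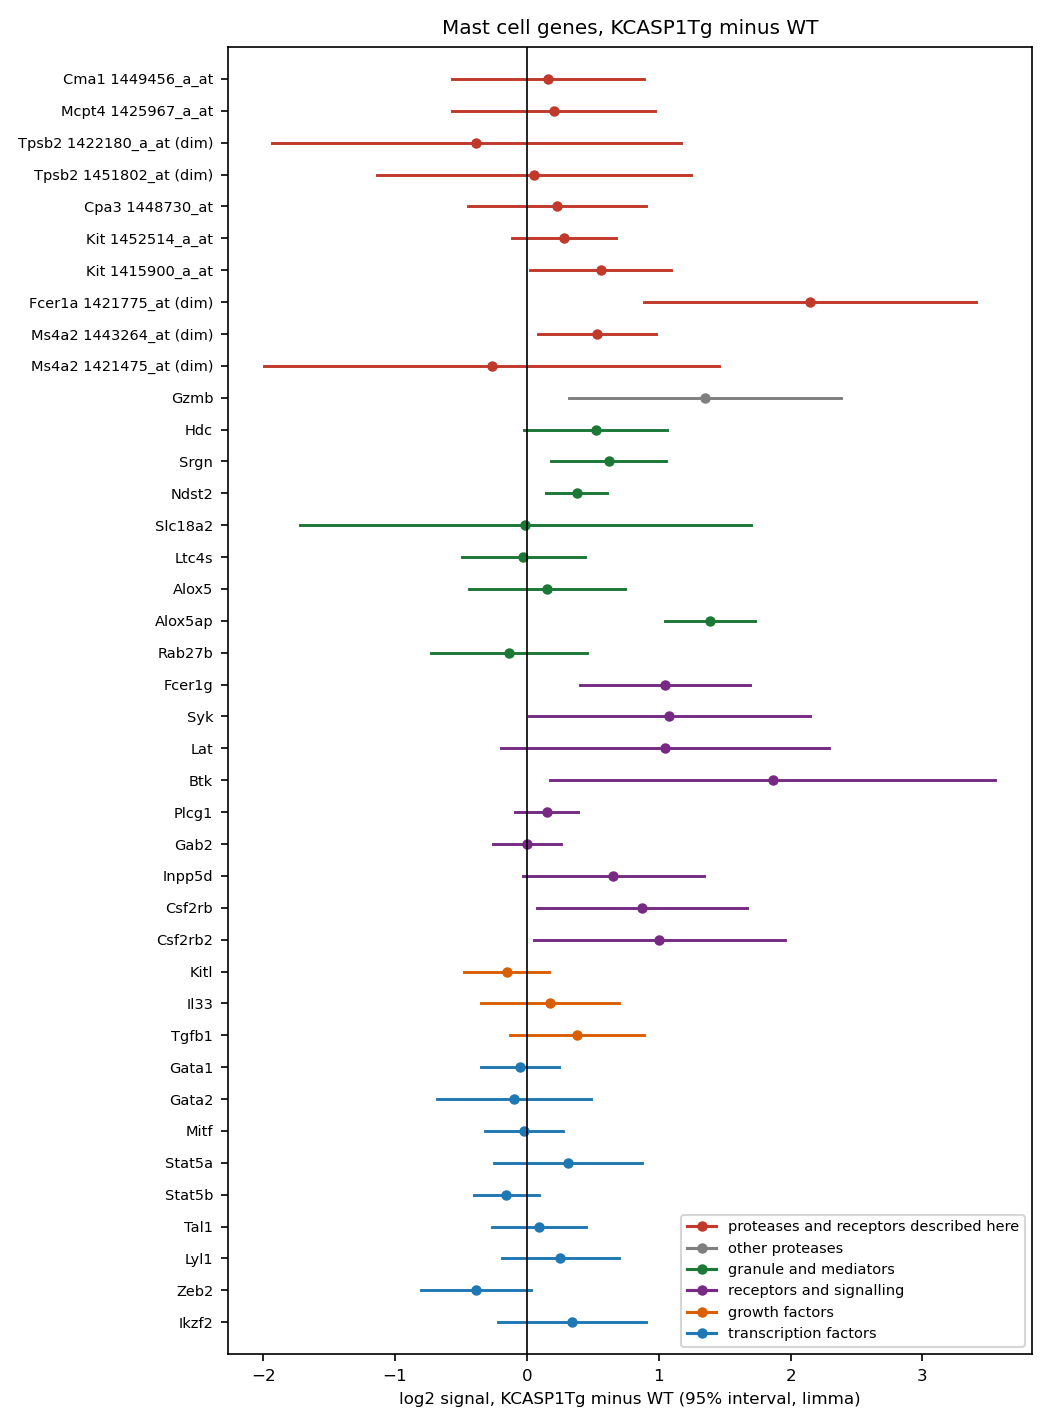
Log2 difference of the signal, KCASP1Tg minus WT (6 and 4 arrays), as points with 95% limma intervals, for the 10 probe sets of the 7 mast cell genes (red) and the tested genes of the other mast cell lists (other colours), where "dim" marks probe sets below the signal filter, fitted without it. Among the red points the intervals of Fcer1a (0.89 to 3.40), of 1 Kit probe set (0.03 to 1.09) and of 1 Ms4a2 probe set (0.08 to 0.98) lie above 0 with no call, and Alox5ap is the 1 gene called.

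Genes most like a mean of the proteases and Kit over the mice were sought among 12291 other tested genes. This mean was taken, over Cma1, Mcpt4, Cpa3 and Kit (probe set 1452514_a_at), of log2 signals centred on their own means. Likeness was Pearson's r over the 10 arrays. The mean joins unlike genes. With genotype means removed, r of this Kit probe set was -0.30 with Cma1, -0.13 with Cpa3 and 0.10 with Mcpt4. The 10 highest were Nup88 (0.93), Qrsl1 (0.92), Ddost (0.92), Numa1 (0.92), Lmtk2 (0.90), Xrcc3 (0.89), Hp1bp3 (0.89), Gmeb1 (0.89), Wdr5b (0.88) and Uimc1 (0.88). None of these is on the mast cell lists. They are the highest of 12291 values over only 10 arrays, and the r that chance would reach was not tested. With genotype means removed, Nup88 (0.93) and Ddost (0.92) again came highest. Of the genes on the mast cell lists, Alox5, the 5-lipoxygenase, had an r of 0.72 and ranked 207 of 12291. Btk had 0.69 (rank 301), Ikzf2, a transcription factor, 0.68 (rank 334) and Hdc 0.60 (rank 679). Gata2 had -0.74 (rank 11883), Slc18a2, the vesicular monoamine transporter, -0.71 (rank 11690) and Kitl -0.65 (rank 11232).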

How the data were processed

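Total RNA of the abdominal aorta of 6 KCASP1Tg and 4 WT mice was hybridised to GeneChip Mouse Genome 430 2.0 arrays, 1 per mouse. The deposited values are signal intensities on a linear scale, which the authors computed with MAS5 and scaled on each array to a trimmed mean of 500. This removes differences in total RNA, and the number of arrays limits the precision. Detection calls were not used here, so a filter (a signal of 100 or more in 4 or more mice) stood in for them. Signals under 1 were set to 1. Log2 values were fitted with limma 3.58.1 in R 4.3.3, with genotype as the term, and called at a Benjamini-Hochberg adjusted p under 0.05. Exact Mann-Whitney tests were two-sided. Probe sets were named from the platform annotation where it gives 1 symbol (34945 of 45037, 34741 of them found in the current gene table). Promoter windows came from RefSeq. Named were all probe sets of the 7 genes and, from each other list, the called genes and those with the lowest p. Other genes in the text were named after their values were seen. The genes and lists were chosen with earlier results of these data known. Alternatives covered the floor, pseudocount, filter, scaling, trend, array weights, test, threshold, replicate block and arrays left out, 2 of them chosen after seeing the data. The steps were tested on simulated data. Plots were made in Python 3.11.15 (matplotlib 3.10.9).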

Additional observations from a re-analysis of the deposited data

Results flagged for a closer look

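Within each group, the highest and lowest array were compared with their neighbours by Dixon's ratio, the gap to the next array over the whole range of log2 signals. This was done for the probe sets of the 7 mast cell genes and the measured genes of the other mast cell lists and of the basophil, melanocyte, interstitial cell of Cajal and progenitor lists. Of 144 groups 16 passed the 95% critical value (0.625 for KCASP1Tg, 0.829 for WT), where chance passes about 1 in 20, and none was a probe set of the 7 genes. KCASP1Tg 4, the array with the lymph node genes, was far above the other KCASP1Tg arrays for Csf2rb2 (signal 1688, ratio 0.807), Csf2rb (2800, 0.804), Syk (1405, 0.794), Myb (411, 0.717), Fcer1g (3005, 0.670) and Tgfb1 (551, 0.663). KCASP1Tg 3, the array highest for the proteases, was far below the others for Slc18a2 (signal 607, ratio 0.689) and above them for Mitf (793, 0.650). Il3ra was low in KCASP1Tg 1 (signal 68.1, ratio 0.777) and Il4 in KCASP1Tg 5 (3.08, 0.715). Among the WT arrays, WT 1 was low for Btk (signal 8.48, ratio 0.892) and Mcpt1 (1.014, 0.836), and WT 2 for Dct (150, 0.927). WT 4 was low for Gata2 (signal 774, ratio 0.882), and high for Angpt1 (970, 0.869) and Stat5b (837, 0.863).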

How the results depend on the processing

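The count of the 7 genes' probe sets called was 0 in all 23 settings, and the median log2 difference of the tested ones was above 0 wherever it was computed (0.04 to 0.47). The count over all probe sets was less stable. Called higher, 18 in the report, were 204 with array weights, 10 at an adjusted p under 0.01, and 0 without WT 1 and WT 3 and without WT 4, KCASP1Tg 1 and KCASP1Tg 2. The exact Mann-Whitney test gave 0 too, but its smallest p, 0.00952, could not pass the adjustment with the number of probe sets that separated the groups, so it says nothing about stability. Leaving out 1 array gave 2 to 61, with 2 without WT 3, 10 without KCASP1Tg 1, 37 without KCASP1Tg 6 and 61 without KCASP1Tg 4. Called lower, 0 in the report, were 1 with a floor of 16 or quantile normalization, 2 with a pseudocount of 50 or no filter, 3 with a filter of 200 or an intensity trend, 63 with array weights, and 0 to 7 with 1 array left out. Cma1 turned to -0.13 with array weights and -0.011 without KCASP1Tg 3 (-0.011 to 0.37 with 1 array left out). Mcpt4 turned to -0.070 without WT 1 (-0.070 to 0.45 with 1 array left out) and -0.25 without WT 1 and WT 3. The cause was not tested. No pairing of the mice by replicate number was seen, with r between the deviations of same-numbered arrays of 0.11, -0.31, -0.44 and -0.33. Between arrays of different numbers it was -0.54 to 0.58. These values cannot show that the mice were unpaired. With the replicate block, which leaves KCASP1Tg 5 and 6 without a partner, 0 probe sets were called higher and the median of the tested probe sets of the 7 genes was 0.39. The dim probe sets were refitted only for the floor, the pseudocount, the filter and arrays left out, and their low signals limit the precision.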
